A study of Mus musculus with 25 samples.

Results

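The nuclear genes for the subunits of mitochondrial complex I were followed one by one in RNA of hippocampal neuronal nuclei. They were chosen by name, as every gene whose symbol is Ndufa, Ndufab, Ndufb, Ndufc, Ndufs or Ndufv followed by a number, which leaves out the Ndufaf assembly factors. The rule found 37 of the 24411 genes in each table, 7 core and 30 accessory subunits, and used no measured value. Nuclei of male mice were sorted with an antibody to the neuronal nuclear antigen NeuN, and their RNA was sequenced in 25 libraries of 3 experiments. The aging experiment compared 3 libraries from wild-type mice aged 3 months (young) with 2 from wild-type mice aged 18 months (aged). The overexpression experiment compared young mice injected with a lentivirus encoding GFP (OE control, 5 libraries) or Ftl1 (Ftl1 OE, 7 libraries), driven by the neuron-specific synapsin-1 promoter. The knockdown experiment compared aged mice injected with a lentivirus that encodes a short hairpin RNA against luciferase (KD control, 4 libraries) or against Ftl1 (Ftl1 KD, 4 libraries). No neuron-specific promoter is stated for the hairpin, so cells other than neurons may also have carried it. The mice that received Ftl1 and their controls both carried a virus, and uninjected mice were not part of those experiments.

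Complex I, the NADH:ubiquinone oxidoreductase, takes electrons from NADH, passes them through a flavin and a chain of iron-sulfur clusters to ubiquinone, and pumps protons across the inner mitochondrial membrane. Its core subunits hold the flavin, the clusters and the quinone site in the N and Q modules of the matrix arm, and the mitochondrial genome encodes the core subunits of the membrane arm. The accessory subunits carry no redox group and stabilize the arms, and most are short proteins with short transcripts. Neurons draw most of their ATP from oxidative phosphorylation, and loss of complex I subunits is a cause of Leigh syndrome. The mitochondrially encoded core genes were not analysed here.

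Values are normalized counts, reads per gene divided by a size factor of the library, and whole reads were recovered from them for 100% of the genes. Depth ran from 7969282 to 9537872 reads for aging, from 9943996 to 17034325 for overexpression and from 48902 to 358560 for knockdown, so the knockdown values are the least precise. Each experiment was normalized separately, so levels were compared within an experiment. RNA of Ftl1 itself, the gene of ferritin light chain, was higher in libraries labelled Ftl1 KD. Its mean was lower, with overlapping groups, in those labelled Ftl1 OE. The libraries are therefore called by their labels. The paper checked both viruses on FTL1 protein, and its western blots showed more after overexpression and less after knockdown. Its methods also name a check by qRT-PCR in mouse cells. The paper's own list of shared genes, lower with overexpression and higher with knockdown, includes Ftl1. Only nuclear RNA was measured here. OE controls held 11515 ± 9579 (SD, n = 5) normalized counts of Ftl1 and libraries labelled Ftl1 OE 5968 ± 1251 (SD, n = 7). The log2 fold change was −0.67 (limma, adjusted p = 0.681). Control 3 held 28310, the other controls 4580 to 9953, and libraries labelled Ftl1 OE 4737 to 7663. KD controls held 43.8 ± 13.7 (SD, n = 4) and libraries labelled Ftl1 KD 118 ± 15.01 (SD, n = 4). That log2 fold change was 1.47 (limma, adjusted p = 2.2e-04). Rbfox3, the gene of the NeuN antigen used for the sort, was read in every library, with 1762 to 2960 normalized counts for aging, 2573 to 5301 for overexpression and 2.94 to 15.1 for knockdown. OE libraries were numbered here by ascending title within each group, so that OE controls 1 to 5 are 9901, 9904, 9905, 9925 and 9926. The paper's supplement lists these controls in another order. OE controls 3 and 5 stood apart from the other OE libraries for most complex I genes, and the values that rest on them are also given without them. In bulk libraries, fewer nuclei of a type and less RNA per nucleus cannot be told apart.

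The promoters of 5 subunits on which the results below turn are shown first, Ndufc1, Ndufs5 and Ndufb4 for the overexpression experiment, Ndufa10 for the knockdown experiment, and the core subunit Ndufv2, whose fold change in the overexpression experiment was the nearest to 0. They are from RefSeq on GRCm38.p6, the mm10 build, are written 5′ to 3′ on the strand of the gene, all of them the minus strand, and lie upstream of every annotated exon of that gene. Capitals mark matches to GGGCGG (reverse CCGCCC), the box bound by SP1, and to CCAAT (reverse ATTGG). The windows are chr3:51408989-51409138 for Ndufc1, chr4:123718203-123718352 for Ndufs5, chr16:37654454-37654603 for Ndufb4, chr1:92473861-92474008 for Ndufa10 and chr17:66101560-66101709 for Ndufv2.
Ndufc1: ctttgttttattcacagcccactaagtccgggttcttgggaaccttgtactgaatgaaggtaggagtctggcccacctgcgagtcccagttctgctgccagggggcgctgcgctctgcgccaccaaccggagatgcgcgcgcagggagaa
Ndufs5: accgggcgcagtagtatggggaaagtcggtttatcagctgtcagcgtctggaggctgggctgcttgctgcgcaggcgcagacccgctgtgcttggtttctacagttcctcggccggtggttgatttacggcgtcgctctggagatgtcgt
Ndufb4: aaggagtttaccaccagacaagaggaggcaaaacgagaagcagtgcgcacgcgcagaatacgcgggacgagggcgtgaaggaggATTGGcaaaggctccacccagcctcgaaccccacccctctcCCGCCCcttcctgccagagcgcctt
Ndufa10: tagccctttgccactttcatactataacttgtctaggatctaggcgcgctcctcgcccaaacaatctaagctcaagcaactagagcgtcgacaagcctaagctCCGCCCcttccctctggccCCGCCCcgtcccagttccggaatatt
Ndufv2: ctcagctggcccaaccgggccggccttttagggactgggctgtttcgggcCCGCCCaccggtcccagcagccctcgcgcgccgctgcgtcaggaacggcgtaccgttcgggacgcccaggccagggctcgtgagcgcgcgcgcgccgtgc
The windows of Ndufc1 and Ndufs5 held no match to these 2 motifs. In GENCODE M21 (GRCm38), Ndufc1 has 4 exons at chromosome 3, 51404677 to 51408988, Ndufs5 has 3 exons at chromosome 4, 123712710 to 123718202, Ndufb4 has 3 exons at chromosome 16, 37647170 to 37654453, and Ndufa10 has 10 exons at chromosome 1, 92439010 to 92473860.

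RefSeq promoters of 300 bases (250 before and 50 after the start) were found for 33 of the 37 genes, with 35 entries in all. Motifs were searched on both strands, and shares are given beside those of all 32851 promoters of that length. The box GGGCGG was in 16 member promoters (45.7%, against 35.7% of all promoters), and CCAAT in 10 (28.6%, against 37.4%). AAGATGG (reverse CCATCTT), the core of the YY1 site, was in 7 (20%, against 6.34%), and CCGGAAG (reverse CTTCCGG), the core of ETS sites, in 4 (11.4%, against 8.86%). GCATGCGC (reverse GCGCATGC), a core of the site of NRF1, a factor known for driving nuclear genes of oxidative phosphorylation, was in 3 (8.57%, against 2.71%). TATAAA (reverse TTTATA) was in 5 (14.3%, against 13.6%).

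Levels were set against each other per kilobase of transcript in the young libraries of the aging experiment, with transcript lengths from GENCODE M21. Ndufb8, an accessory subunit at the distal end of the membrane arm, had the highest level at 1915 ± 524 normalized counts per kilobase (SD, n = 3). Ndufs7, the core subunit with the terminal iron-sulfur cluster next to ubiquinone, followed at 1657 ± 332, and Ndufa4, an accessory subunit since assigned to cytochrome c oxidase, at 1251 ± 386. These 3 neighbours in the order had overlapping ranges over the young libraries. The lowest levels were those of Ndufab1, the mitochondrial acyl carrier protein, at 262 ± 68.8, Ndufb4 at 254 ± 23.4 and Ndufs4, a gene mutated in Leigh syndrome, at 206 ± 34.2, and the ranges of these 3 overlapped too. The median was 1117 per kilobase over the 7 core and 656 over the 30 accessory subunits. Core transcripts had a median length of 1046 bases and accessory transcripts of 611 bases, and 28 of the 37 were under 1000 bases. The transcripts used were of 1416 bases for Ndufab1, 971 for Ndufb4 and 1698 for Ndufs4. Before division by length their mean counts were 371, 247 and 350, above the 115 of Ndufc1. Their low places per kilobase therefore depend on the transcript chosen for each gene.

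The first comparison asked whether complex I transcripts differ between young and aged neuronal nuclei. Of the 37 subunits, 29 were higher in the aged libraries and 8 lower, where 48.3% of all 13712 genes tested were higher. The median log2 fold change was 0.25 over the subunits and −0.03 over all genes tested. It was 0.28 over the accessory subunits, of which 25 of 30 were higher, and 0.02 over the core subunits, of which 4 of 7 were higher. No subunit was past the threshold in limma, with a smallest adjusted p of 0.614, and limma called 0% of all genes. edgeR called 0 subunits and 0% of all genes, and DESeq2 0 subunits and 1.01% of all genes. With p unadjusted, limma put 1 subunit at 0.05 or less, Ndufb10, which was higher, as were 2.9% of all genes.

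Ndufb10, an accessory subunit of the distal membrane arm, had 397, 505 and 467 normalized counts in young mice, and its aged libraries held 729 and 764. Both aged libraries lay above all young libraries. The log2 fold change was 0.72 ± 0.31 (SE), with an adjusted p of 0.614 in limma. Ndufa3, a small accessory subunit of the proximal membrane arm, had 206, 317 and 316 in young and 443 and 491 in aged libraries, a log2 fold change of 0.76 ± 0.37. Ndufb7 had 201, 330 and 262 in young and 401 and 411 in aged libraries. Ndufa6, which anchors an acyl carrier protein at the matrix arm, had 148, 233 and 179 in young and 293 and 271 in aged libraries, and Ndufa2 had 505, 473 and 558 in young and 772 and 598 in aged libraries. The groups did not overlap for these 5 genes.

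Groups did not overlap, with aged libraries higher, for 11 of the 37 subunits, Ndufa2, Ndufa3, Ndufa6, Ndufa13, Ndufb2, Ndufb4, Ndufb7, Ndufb10, Ndufs4, Ndufs6 and Ndufv3, and the same held for 12.2% of all genes. All 11 were accessory subunits. Ndufa9, an accessory subunit at the junction of the arms, had the most negative fold change, with 521, 961 and 1046 in young and 401 and 669 in aged libraries, a log2 fold change of −0.64 ± 0.38 (limma, adjusted p = 0.685) that was −0.27 without aged replicate 2 and −1.004 without aged replicate 3. Its groups overlapped, because young replicate 1 lay between the aged libraries. With 3 libraries against 2, the smallest p that an exact permutation test (two-sided) can reach is 0.2.

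Among the core subunits, 4 were higher and 3 lower with age. Ndufs7 had 1047, 1535 and 1185 normalized counts in young and 2206 and 1534 in aged libraries, the core fold change furthest from 0, at 0.57 ± 0.29 on the log2 scale (limma, adjusted p = 0.648), which was 0.31 without aged replicate 2 and 0.83 without aged replicate 3. Ndufv1, which binds NADH and the flavin, had 1305, 1712 and 2294 in young and 2122 and 1840 in aged libraries. Ndufs1, Ndufs8, Ndufv2 and Ndufs3 had log2 fold changes of −0.17, −0.14, −0.24 and 0.02. For each of the 7 core genes the groups overlapped. Within a library, the mean log2 count of the core subunits exceeded that of the accessory subunits by 1.61 ± 0.12 (SD, n = 3) in young libraries, between 1.49 and 1.72, and by 1.43 ± 0.03 (SD, n = 2) in aged libraries, between 1.41 and 1.45, and the groups did not overlap.

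The number of subunits higher with age depended on single libraries. Without young replicate 1, which was the lowest of the 5 libraries for 22 of the 37 subunits, 16 subunits were lower and the median log2 fold change was 0.08. Without aged replicate 3, 15 were lower, and without aged replicate 2, 5 were lower. Ribosomal protein transcripts (80 genes) were likewise higher in the aged libraries, with 23.5 to 31.3 per 10000 normalized counts in young and 35.6 to 37.2 in aged libraries, and their part in the result was not tested.

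The next comparison asked how complex I transcripts differ between young mice that received the GFP virus and those that received the Ftl1 virus. Of the 37 subunits, 36 were lower in the libraries labelled Ftl1 OE, all 30 accessory and 6 of 7 core subunits, where 42.6% of all 14099 genes tested were lower. The median log2 fold change was −0.64 over the subunits and 0.10 over all genes. It was −0.70 over the accessory subunits, between −1.09 for Ndufs5 and −0.28 for Ndufb5, and −0.49 over the core subunits. No subunit was past the threshold in limma, which called 0% of all genes, with a smallest adjusted p of 0.499 for the subunits. edgeR called 0 subunits (smallest adjusted p = 0.399) and 0% of all genes, and DESeq2 called 7, all lower and all accessory, where it called 1.24% of the genes to which it gave an adjusted p as lower. With p unadjusted, 28 of the 37 were lower in limma at 0.05 or less, 26 accessory and 2 core (Ndufs3 and Ndufs7), where 3.66% of all genes were. The sum over all 37 genes was 128494 ± 49586 normalized counts (SD, n = 5) in controls and 80596 ± 13169 (SD, n = 7) in libraries labelled Ftl1 OE, and the groups overlapped. Without OE controls 3 and 5 the control sum was 94456 ± 17488 (SD, n = 3).

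**Figure D1:**
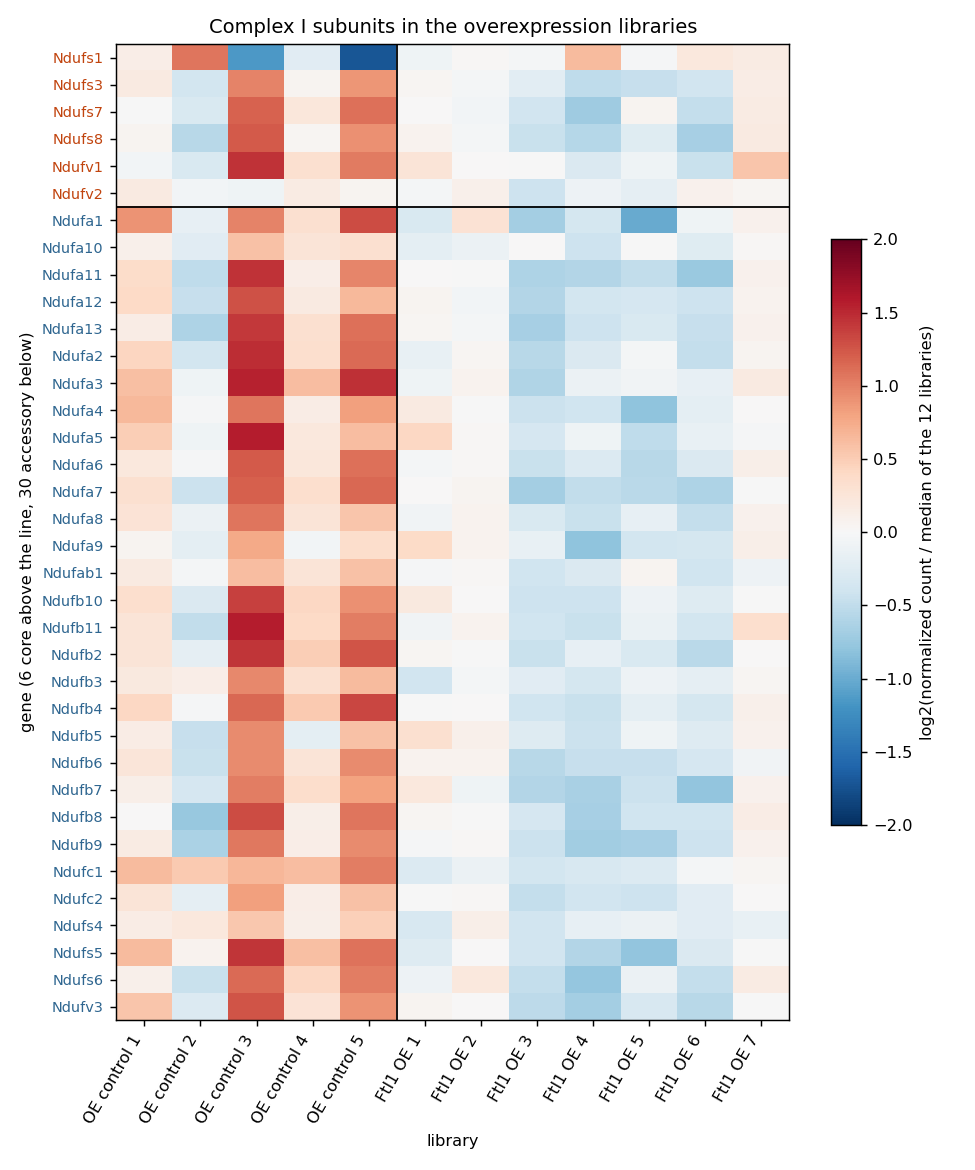
Level of 36 complex I subunits (rows, 6 core in red type above the line and 30 accessory in blue type below) in each of the 12 overexpression libraries (columns, controls left of the line), as log2 of the normalized count over the gene's median of the 12 libraries. OE controls 3 and 5 were the 2 highest libraries for most of these genes and the 2 lowest for Ndufs1.

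Ndufc1, a short single-span subunit of the membrane arm, was lower in every library labelled Ftl1 OE than in any control. It had 849, 782, 859, 833 and 1106 normalized counts in the 5 controls, and 423, 450 and 558 as the lowest, median and highest of the 7 libraries labelled Ftl1 OE. Control 5 lay above the other 4 controls, which were close to each other. The log2 fold change was −0.88 ± 0.19 (SE), with an adjusted p of 0.499 in limma, 0.399 in edgeR and 0.00466 in DESeq2. The exact permutation p of its log2 values (two-sided, unadjusted) was 0.00253, which is also the lowest value that this design can give. A processed pseudogene matches 55.6% of the Ndufc1 transcript at 92.9% identity and may share its reads.

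Ndufs5, an accessory subunit on the intermembrane-space side of the membrane arm, had 867, 589, 1505, 856 and 1192 in controls and 323, 462 and 565 as the lowest, median and highest in libraries labelled Ftl1 OE. Its groups did not overlap either, and its log2 fold change of −1.09 ± 0.25 was the most negative of the subunits (adjusted p = 0.499 in limma and 0.0134 in DESeq2) and was −0.76 without controls 3 and 5. Its reads are uncertain, since the pseudogene BC002163 in the same table matches 53.3% of the Ndufs5 transcript at 99.4% identity. BC002163 itself had 2927 ± 653 (SD, n = 5) in controls and 1754 ± 295 (SD, n = 7) in libraries labelled Ftl1 OE. Ndufb3, named here because its groups did not overlap and not by the rule for named genes, had 1312, 1253, 2223, 1430 and 1761 in controls and between 879 and 1167 in libraries labelled Ftl1 OE, which gave a log2 fold change of −0.62 ± 0.19 (limma, adjusted p = 0.499) and of −0.40 without those controls. These 3 accessory genes were the only subunits without overlap, and 0.411% of all genes separated in the same direction.

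DESeq2 also called Ndufb4, Ndufa3, Ndufa1, Ndufb2 and Ndufa4, whose groups overlapped. Ndufb4, of the distal membrane arm, had 1928, 1427, 3219, 2074 and 3642 in controls and 1065, 1268 and 1560 as the lowest, median and highest in libraries labelled Ftl1 OE (log2 fold change −0.86 ± 0.23, DESeq2 adjusted p = 0.0251). Ndufa3 had 1521, 939, 2910, 1543 and 2760 in controls and 664, 946 and 1135 in libraries labelled Ftl1 OE (−0.94 ± 0.26, DESeq2 adjusted p = 0.0251). For both genes control 2 lay within the range of the libraries labelled Ftl1 OE, and controls 3 and 5 lay furthest above it. Ndufa1, an X-linked subunit mutated in complex I deficiency, had 2570, 1242, 2752, 1737 and 3408 in controls and between 689 and 1692 in libraries labelled Ftl1 OE (−0.96 ± 0.27). Ndufb2 had 1298, 964, 2940, 1538 and 2606 in controls and between 753 and 1125 in libraries labelled Ftl1 OE (−0.85 ± 0.26). Ndufa4 had 5084, 3174, 6744, 3564 and 5712 in controls and between 1852 and 3647 in libraries labelled Ftl1 OE (−0.77 ± 0.22). For each of these 3 genes at least 1 control lay within the range of the other group. Without controls 3 and 5 the log2 fold changes were −0.49 for Ndufb4, −0.49 for Ndufa3, −0.65 for Ndufa1, −0.39 for Ndufb2 and −0.50 for Ndufa4.

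Of the core subunits, Ndufs7, Ndufs8, Ndufs3 and Ndufv1 had lower means in libraries labelled Ftl1 OE and were highest in controls 3 and 5. Ndufv1 had 4855, 4091, 13849, 6323 and 10386 normalized counts in controls and 3724, 5021 and 7433 as the lowest, median and highest in libraries labelled Ftl1 OE, which gave a log2 fold change of −0.49 ± 0.28 (limma, adjusted p = 0.706). Ndufs7 had 5749, 4682, 13077, 6820 and 12392 in controls and 3527, 5608 and 6499 in libraries labelled Ftl1 OE, which gave a log2 fold change of −0.63 ± 0.26 (limma, adjusted p = 0.638). For Ndufv1 controls 1, 2 and 4 lay within the range of the other group, and for Ndufs7 controls 1 and 2 did. Ndufs8 and Ndufs3, of the Q module, had log2 fold changes of −0.58 and −0.55. Without controls 3 and 5 those of these 4 core subunits were 0.01 for Ndufv1, −0.17 for Ndufs7, −0.09 for Ndufs8 and −0.16 for Ndufs3.

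Ndufv2, the partner of Ndufv1 in the NADH-binding tip, had the log2 fold change nearest to 0 of the 37 over the 12 libraries. It had 4543, 3881, 3785, 4526 and 4182 in controls and 3031, 3908 and 4311 as the lowest, median and highest in libraries labelled Ftl1 OE, which gave a log2 fold change of −0.12 ± 0.15 (limma, adjusted p = 0.827) and −0.17 without controls 3 and 5. Ndufs1, the largest core subunit and the one with the longest transcript at 2590 bases, was the 1 subunit with a higher mean on the log2 scale. It had 1614, 3089, 668, 1271 and 452 in controls and 1399, 1506 and 2282 as the lowest, median and highest in libraries labelled Ftl1 OE. Controls 3 and 5, the highest libraries for most other subunits, were here the 2 lowest of 12, and control 2 the highest. Its log2 fold change was 0.50 ± 0.36 (limma, adjusted p = 0.732), and it was 0.17 without control 5 alone and turned to −0.20 without those 2 controls.

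**Figure D2:**
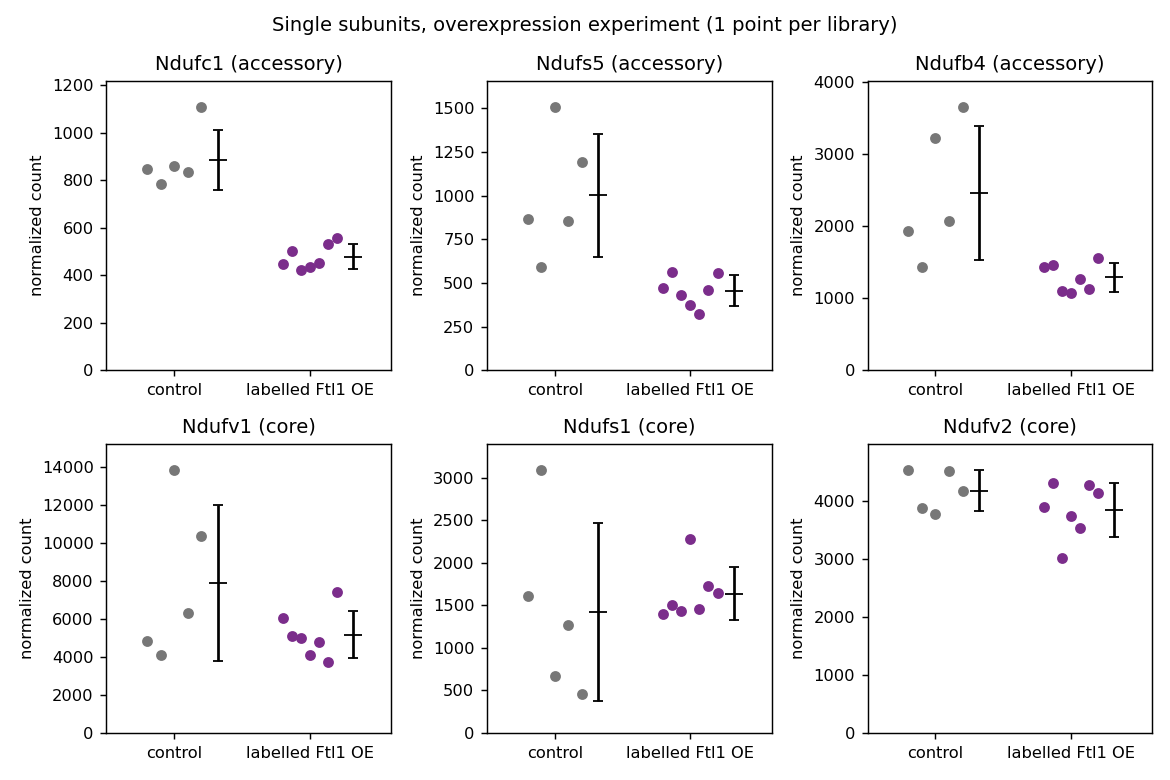
Normalized counts (vertical axes, from 0) of 3 accessory and 3 core subunits in the overexpression experiment, with 1 point per library in replicate order and the mean ± SD of each group in black. The groups separate for Ndufc1 and Ndufs5 and overlap for Ndufb4 and Ndufv1. Ndufv2 has the log2 fold change nearest to 0, and for Ndufs1 controls 3 and 5 are the lowest points.

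OE controls 3 and 5 were together the 2 highest of the 12 libraries for 34 of the 37 subunits, all but Ndufa9, Ndufs1 and Ndufv2, and for 13.7% of all genes tested. Without both of them, a comparison chosen after seeing the data, 34 subunits were still lower, where 54.3% of all genes were, and the median log2 fold change was −0.29, against −0.05 over all genes. With p unadjusted, 7 subunits were then lower at 0.05 or less, and 1.99% of all genes. Limma called 0 subunits and 0% of all genes then. DESeq2 also called 0, of the 34 to which it gave an adjusted p, and 0% of the 2891 genes with one. Ndufc1 and Ndufs5 were not among those 34, and their unadjusted DESeq2 p-values were 2.2e-04 and 0.00428. Ndufc1 moved least of the genes called by DESeq2, to −0.78 ± 0.20 in limma (unadjusted p = 0.00125, adjusted p = 0.836). Ndufb5, of the distal membrane arm, turned from −0.28 to 0.10.

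Core subunits had the smaller fold changes, and their median minus that of the accessory subunits was 0.21 on the log2 scale. Within a library, the mean log2 count of the core subunits exceeded that of the accessory subunits by 0.83 ± 0.23 (SD, n = 5) in controls, between 0.62 and 1.17, and by 1.19 ± 0.09 (SD, n = 7) in libraries labelled Ftl1 OE, between 1.06 and 1.29, so the groups overlapped. Without controls 3 and 5 the control value was 0.96 ± 0.18 (SD, n = 3), and the median fold change was −0.16 over the core and −0.33 over the accessory subunits. By position, the median was −0.82 over the 9 subunits of the proximal membrane arm, −0.67 over the 10 of the distal membrane arm, −0.65 over the 10 of the N module and −0.56 over the 6 of the Q module. Without those controls the 4 medians were −0.33, −0.28, −0.30 and −0.13.

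Other transcripts also varied over the OE libraries. Ribosomal protein transcripts (80 genes) made up between 77.9 and 161 per 10000 normalized counts in controls, highest in controls 3 and 5, and between 65.9 and 89.1 in libraries labelled Ftl1 OE. The 7 markers of microglia summed to between 1.36 and 3.14 per 10000 in controls and between 0.69 and 1.43 in libraries labelled Ftl1 OE, with 6 of 7 lower and none at 0 in all libraries. Nuclear-retained RNAs (5 genes) ranged from 36.2 to 207 per 10000 in controls, lowest in control 3, and from 55.4 to 271 in libraries labelled Ftl1 OE. Sums of the 6 astrocyte markers (6.46 to 30.7 and 13.4 to 40.9 per 10000), the 6 oligodendrocyte markers (13.3 to 32.3 and 20.97 to 34.3) the 6 neuron markers (33.6 to 55.1 and 31.6 to 42.1) and the 4 markers of oligodendrocyte precursors (1.01 to 1.89 and 0.738 to 1.45) overlapped between the groups, and none of these markers was at 0 in all libraries. Their part in the result was not tested.

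The last comparison asked how complex I transcripts differ between aged mice that received the hairpin against luciferase and those that received the hairpin against Ftl1. At the depth of these libraries, 16 of the 37 subunits passed the filter of a mean normalized count of at least 10, all 7 core and 9 accessory subunits, and the 21 others were not tested. Of the 16, 7 (Ndufa10, Ndufa9, Ndufa11, Ndufa4, Ndufb5, Ndufs1 and Ndufv2) had a control mean below 10 and passed through the higher libraries labelled Ftl1 KD, so counts over the 16 describe those genes only and are read as nothing more. Over all 37 subunits, whether they passed or not, the mean was higher in libraries labelled Ftl1 KD for 28 and lower for 9, where it was higher for 43.3% of the 13393 genes with reads. Limma called 1 of the 16 higher, Ndufa10, and 0 lower, where it called 10.5% of 1460 genes higher and 13.7% lower. Centred on the median gene of each library, limma called 197 genes higher and 161 lower in place of 154 and 200, and the median over all genes moved from −0.01 to 0.10. DESeq2 called Ndufa10 alone among the subunits, where it called 11% of genes higher, and edgeR called Ndufa10 and Ndufa9 higher, where it called 13.2%. With p unadjusted, 3 of the 16 were higher in limma at 0.05 or less, where 17.5% of genes were, and 1 was lower, Ndufs7, where 20.7% were. Of the subunits edgeR and DESeq2 called 0 lower, and of all genes 15.6% and 12.9%.

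Ndufa10, an accessory subunit of the membrane arm with a fold related to nucleoside kinases, had 6.61, 12.1, 7.49 and 10.9 normalized counts in controls and 21.1, 21.6, 21.9 and 35.3 in libraries labelled Ftl1 KD, which rest on only 4 to 30 reads each. All libraries labelled Ftl1 KD lay above all controls. With a control mean below 10, Ndufa10 passed the filter only through those higher libraries, so its p-values are not independent of that selection. With no filter, limma also called it. Ndufa10 rose by a log2 fold change of 1.34 ± 0.34 (SE, n = 4 each), with an adjusted p of 0.00541 in limma, 0.00526 in edgeR and 0.00708 in DESeq2, and its exact permutation p (two-sided) was 0.0286, the lowest possible for 4 against 4 libraries. Leaving out any 1 library kept it between 1.17 and 1.47, and over all alternatives in which it was tested its adjusted p lay between 0.0032 and 0.0388. In the overexpression experiment its log2 fold change was −0.34 ± 0.17 (limma, adjusted p = 0.679), and in aging −0.12 ± 0.37. The study named Ndufa10 among the genes it chose on these samples, so its direction here is not independent evidence.

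Ndufa9, Ndufa4, Ndufa11 and Ndufb5 likewise passed the filter only through the higher libraries labelled Ftl1 KD, which limits their p-values in the same way. Ndufa9 had 6.61, 6.05, 11.2 and 9.20 in controls and 11.5, 21.6, 20.04 and 16.2 in libraries labelled Ftl1 KD. The groups did not overlap, but control 3 and Ftl1 KD library 1 were close, and the log2 fold change was 0.98 ± 0.39, with an adjusted p of 0.0614 in limma and 0.0422 in edgeR. Without control replicate 3, limma called Ndufa9 higher (adjusted p = 0.0327) and Ndufs7 lower (adjusted p = 0.0396). Ndufa4 had 1.89, 15.7, 11.2 and 5.43 in controls and 16.3, 14.4, 12.8 and 17.6 in libraries labelled Ftl1 KD (1.04 ± 0.48, limma adjusted p = 0.112), with control 2 inside the range of the other group. Ndufa11, Ndufb5 and Ndufb9, membrane-arm subunits, had log2 fold changes of 0.74, 0.46 and 0.42 with overlapping groups. Single libraries moved these values, with Ndufa4 at 0.56, Ndufb5 at 0.03 and Ndufb9 at −0.0038 without control 1, and Ndufa11 at 0.42 without control 3. Groups did not overlap for 2 of the 16 subunits with the libraries labelled Ftl1 KD higher, near the share of all genes (11.8%).

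Ndufs7 had the most negative fold change of the 16. It had 19.8, 34.7, 14.98 and 15.9 in controls and 10.5, 10.8, 7.29 and 14.7 in libraries labelled Ftl1 KD, so that each of the latter lay below every control, although control 3 at 14.98 and Ftl1 KD library 5 at 14.7 were close. Its log2 fold change was −0.87 ± 0.36, with an adjusted p of 0.0705 in limma, 0.0510 in edgeR and 0.0899 in DESeq2. It was the only 1 of the 16 without overlap and lower, where 11.9% of all genes were. The other core subunits overlapped. Ndufs1 had 16.04, 4.44, 7.49 and 8.78 in controls and 16.3, 22.5, 9.11 and 5.88 in libraries labelled Ftl1 KD (0.47 ± 0.48), and Ndufv1 had 24.5, 33.9, 16.9 and 18.0 in controls and 39.3, 29.8, 20.04 and 11.8 (0.04 ± 0.34). Log2 fold changes were 0.35 for Ndufs8, 0.29 for Ndufv2 and 0.00 for Ndufs3. Leaving out 1 library at a time gave 0.07 to 0.69 for Ndufs8, 0.01 to 0.51 for Ndufv2 and 0.18 to 0.78 for Ndufs1.

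**Figure D3:**
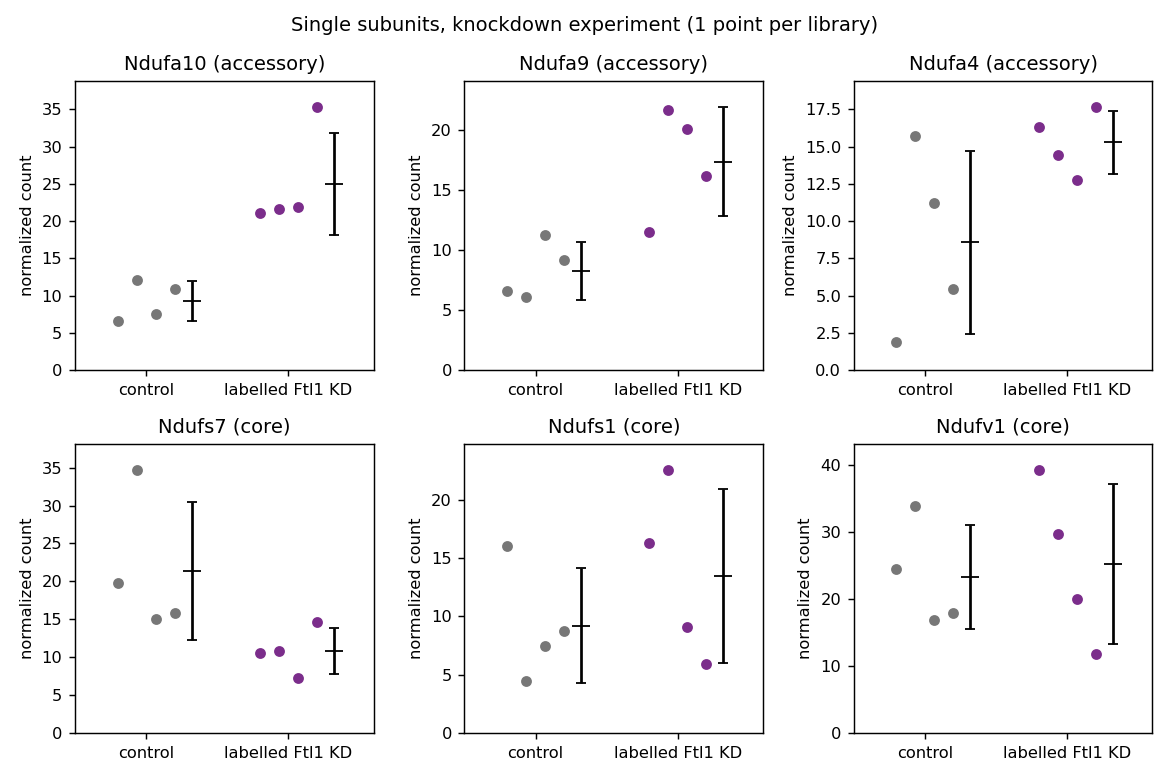
Normalized counts (vertical axes, from 0) of 3 accessory and 3 core subunits in the knockdown experiment, with 1 point per library in replicate order and the mean ± SD of each group in black. The groups separate for Ndufa10 and Ndufa9, with the libraries labelled Ftl1 KD higher, and for Ndufs7, with them lower, and overlap for Ndufa4, Ndufs1 and Ndufv1.

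Within a library, the mean log2 count of the 7 core subunits was set against that of the 9 accessory subunits that passed the filter. Core exceeded accessory by 0.54 ± 0.40 (SD, n = 4) in controls, between 0.25 and 1.12. In libraries labelled Ftl1 KD the difference was 0.03 ± 0.16 (SD, n = 4), between −0.20 and 0.13. These ranges over the 16 tested subunits did not overlap, and control 1 held the highest value. The 9 accessory subunits include Ndufa10, Ndufa9, Ndufa11, Ndufa4 and Ndufb5, which passed through the higher libraries labelled Ftl1 KD. The filter therefore favours this separation, which is read as nothing more. The sum over all 37 subunits was 318 ± 63.0 normalized counts (SD, n = 4) in controls and 399 ± 32.5 (SD, n = 4) in libraries labelled Ftl1 KD, with overlapping ranges of 246 to 374 and 352 to 423. As a share of the library, the same sum was between 21.2 and 29.4 per 10000 normalized counts in controls and between 39.5 and 48.4 in libraries labelled Ftl1 KD, without overlap. As values that the filter itself favours, fold changes over the 16 tested subunits had a median of 0.36 on the log2 scale, between 0.18 without control 1 and 0.44 without Ftl1 KD library 4, and the core minus accessory median was −0.17, between −0.43 without control 5 and −0.0060 without control 1. The normalized totals of the libraries ran from 97581 to 144628 in controls and from 87332 to 93111 in libraries labelled Ftl1 KD.

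In the same libraries, ribosomal protein transcripts made up 54.4 to 77.1 per 10000 in controls and 117 to 124 in libraries labelled Ftl1 KD. Nuclear-retained RNAs made up 42.3 to 102 per 10000 in controls and 23.7 to 33.7 in libraries labelled Ftl1 KD, and the 6 oligodendrocyte markers 2.76 to 6.47 and 1.23 to 2.48, with none of the 6 at 0 in all libraries. Astrocyte markers (6 genes) made up 2.20 to 5.80 per 10000 in controls and 6.82 to 7.77 in libraries labelled Ftl1 KD, and neuron markers (6 genes) 15.9 to 27.6 and 16.6 to 19.8. Markers of oligodendrocyte precursors (4 genes) made up 0.157 to 1.32 per 10000 in controls and 1.75 to 3.27 in libraries labelled Ftl1 KD, with none of the 4 at 0 in all libraries, so that their groups and those of the astrocyte markers did not overlap. Microglial markers (7 genes) summed to at most 1.03 per 10000, and the endothelial markers Pecam1, Flt1, Kdr and Cdh5 were at 0 in all libraries. Their part in the result was not tested.

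Set side by side, the 2 virus experiments share no library. Of the 16 subunits tested in both, 13 were lower with the Ftl1 virus and higher with the hairpin against Ftl1. Another 2, Ndufa13 and Ndufs7, were lower with both, and 1, Ndufs1, was higher with both. The knockdown filter favours subunits that are high with that hairpin, so these counts are read as nothing more. Ndufs7 had log2 fold changes of −0.63 with the Ftl1 virus and −0.87 with the hairpin, and Ndufs1 of 0.50 and 0.47. Ndufa13 differed by −0.0030 in the knockdown experiment (limma, adjusted p = 0.998), far below its standard error of 0.41. The sign of Ndufs1 in the overexpression experiment turned without controls 3 and 5.

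**Figure D4:**
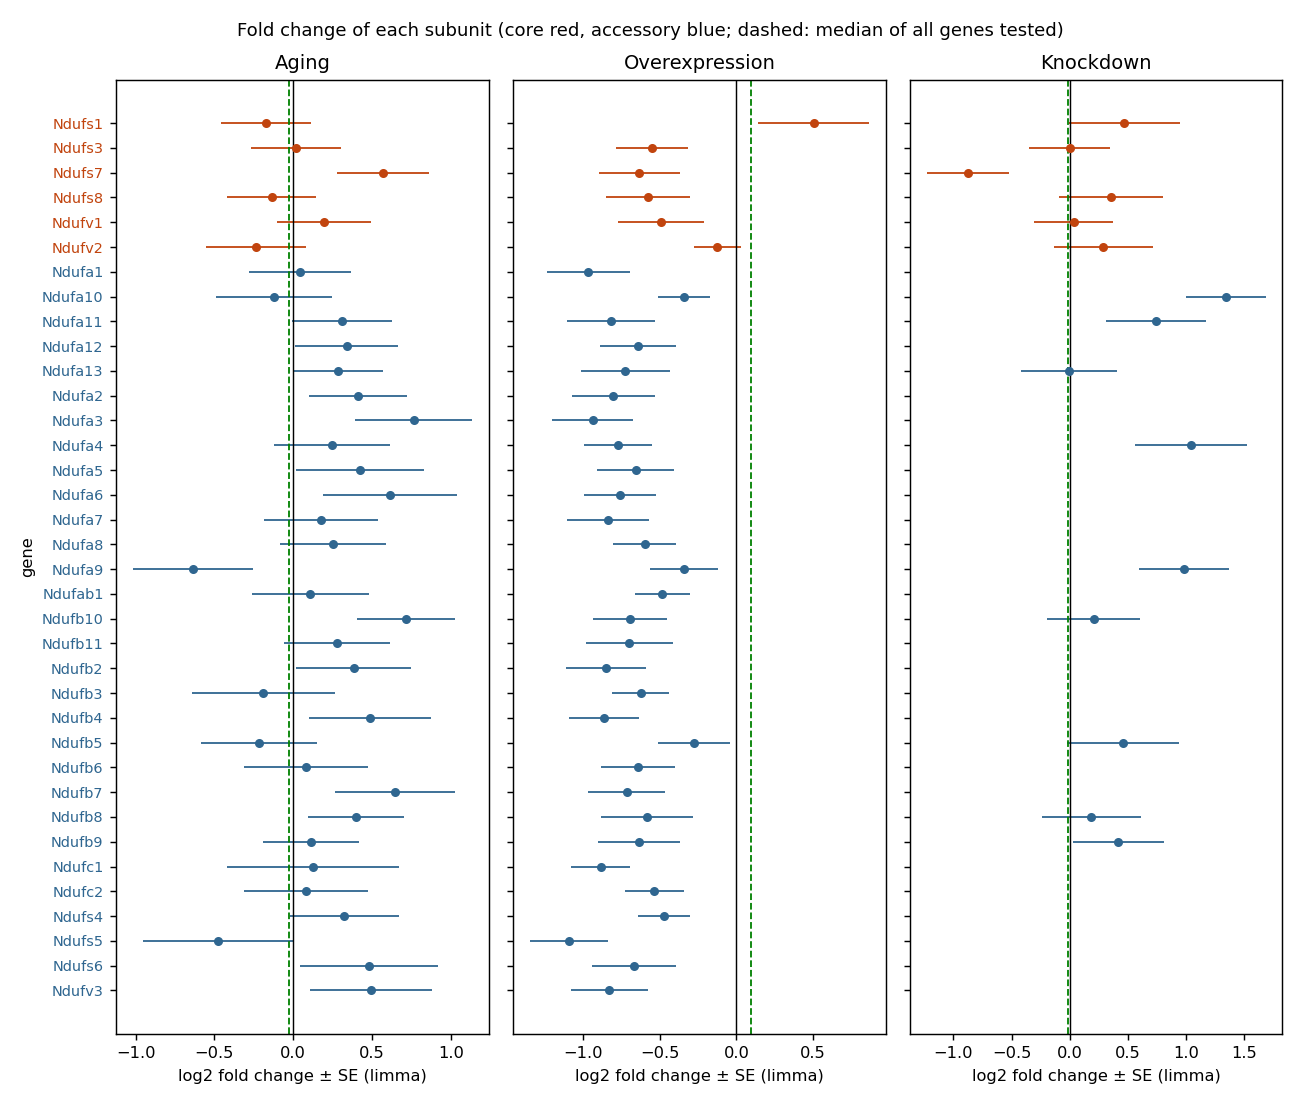
Log2 fold change ± SE in limma (horizontal axes) of 36 complex I subunits (rows, core in red, accessory in blue) in the aging, overexpression and knockdown experiments, with the median of all genes tested as a dashed line. Subunits without a point were not tested, and in the overexpression experiment Ndufs1 is the 1 drawn subunit above 0.

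Fold changes varied with transcript length among all other genes, and among the subunits in the overexpression and aging experiments. In the overexpression experiment, the 15 subunits under 600 bases had a median log2 fold change of −0.80, the 13 from 600 to 1000 bases −0.63, the 7 from 1000 to 2000 bases −0.48, and the 2 from 2000 to 3000 bases, Ndufa10 and Ndufs1, 0.08. Other genes of the same lengths had medians of −0.35, −0.24, −0.04 and 0.14, and genes of 3000 bases or more 0.22. Below 1000 bases all 28 subunits were lower, as were 65.5% of 1585 other genes. Without OE controls 3 and 5 the medians of these 4 length bins up to 3000 bases were −0.35, −0.20, −0.16 and −0.19 for the subunits and −0.27, −0.14, −0.05 and −0.01 for the other genes. In aging, the 28 subunits under 1000 bases had a median of 0.29 and the other genes of that length 0.14. In the knockdown experiment, the subunits tested had medians of 0.89, 0.29, 0.04 and 0.91 over the 4 bins (2, 7, 5 and 2 genes), not ordered by length. Other genes there had 0.27, 0.39, 0.17 and 0.11, and −0.50 at 3000 bases or more. The part of length in these results was not tested.

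**Figure D5:**
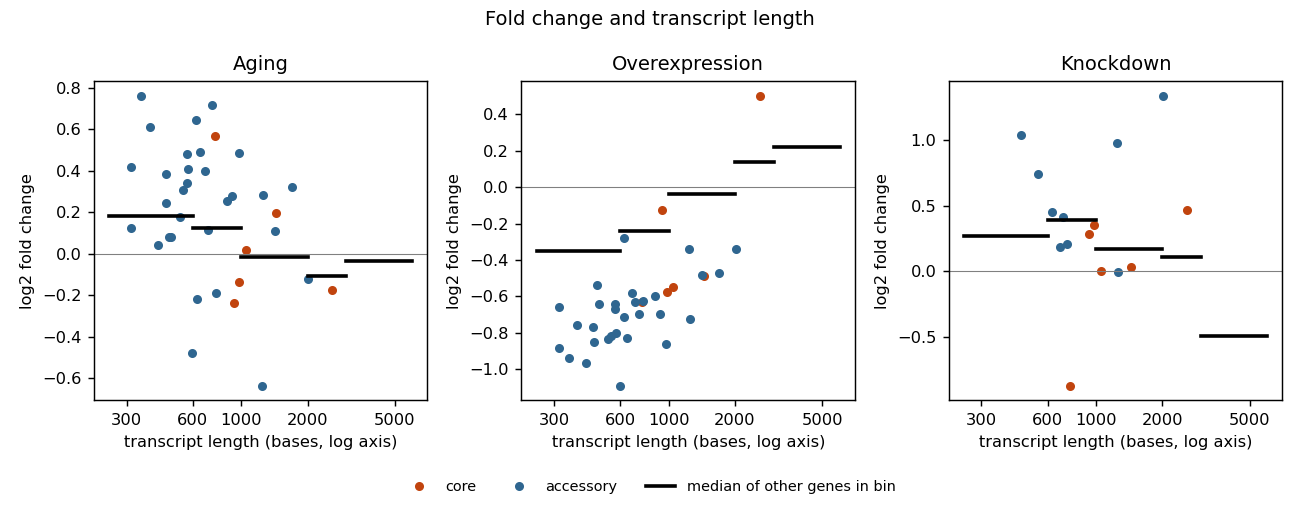
Log2 fold change (vertical axes) against transcript length in bases (horizontal log axes) for the core (red) and accessory (blue) subunits tested in each experiment, of the 36 that are drawn, with the median of all other genes in each length bin as a black bar (the last bin holds all genes of 3000 bases or more). In the overexpression experiment the subunits under 600 bases have a median of −0.80 and the other genes of that length −0.35.

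Assembly factors build the complex but are no part of it, and 15 of them were in the tables. In the overexpression experiment, 6 were higher and 9 lower, with a median log2 fold change of −0.10, and their sum lay between 4.85 and 6.60 per 10000 in controls and between 5.23 and 6.98 in libraries labelled Ftl1 OE. Limma, edgeR and DESeq2 each called 0 of them, here and in aging. In both experiments limma and edgeR called 0% of all genes, and DESeq2 called 1.24% of genes with an adjusted p lower here and 1.01% in either direction in aging. With p unadjusted, limma put 1 of the 15 at 0.05 or less as higher, Tmem70, at 0.75 ± 0.34, and 1 lower, Ndufaf3, at −0.65 ± 0.31. Of all 14099 genes, 1023 had such a p in either direction, and 3.66% were lower with it. In aging, 3 of the 15 were higher and 12 lower, with a median of −0.28, and 1, Ndufaf7, had an unadjusted p below 0.05 as lower (−0.86 ± 0.38, limma adjusted p = 0.614), as did 5.04% of all genes. The sum of the 15 was between 5.72 and 7.28 per 10000 in young and between 4.97 and 5.02 in aged libraries. In the knockdown experiment 0 of the 15 passed the filter.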

How the data were processed

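Neuronal nuclei from the hippocampus were sequenced in 25 libraries, and the sample labels gave the groups. The authors used STAR for alignment (mm10), RSEM for gene counts and DESeq2 for normalization. The release of the annotation is not given in the sources used here. The labels describe polyA-enriched strand-specific libraries and the methods a modified Smart-seq2 protocol, and the methods name both lentivirus and adeno-associated virus for injection. The authors deposited 1 table for each experiment with 24411 genes, whose values per library are normalized counts (a signal), next to the columns of their own comparison (mean, log2 fold change, standard error, statistic, p-value and adjusted p-value), which were not used. Library columns left unused numbered 0. Whole reads were recovered from the step size of each library for 100% of its values (tolerance 0.05).

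Normalized counts were compared with limma 3.58.1 (R 4.3.3) as log2 after adding a pseudocount of 1, with an intensity trend (limma-trend), keeping genes that averaged 10 or more (aging 13712, overexpression 14099, knockdown 1460). A pseudocount understates the change of low genes. Adjustment was by Benjamini-Hochberg over all genes kept, the threshold was 0.05, and aging calls also needed 0.5 or more on the log2 scale in either direction. Fold changes run from young to aged and from control to virus. P-values measure the spread between these samples. The quasi-likelihood test of edgeR 4.0.16 and DESeq2 1.42.0 were run on the recovered reads as alternatives, beside other pseudocounts, filters and scalings, each library left out in turn and the replicate number as a block. The models were tested on simulated data. Exact permutation tests (scipy 1.17.1) were two-sided, with the smaller tail doubled.

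A core subunit that is part of the counts, sums and medians is not reported here on its own. Otherwise, named were the core subunits tested, every subunit past the threshold in limma, edgeR or DESeq2, the 6 accessory subunits with the smallest limma p in each experiment, and the 3 highest and 3 lowest per length. Gene models came from GENCODE M21 (GRCm38, which is mm10), with the coding transcript of median length, and promoters from RefSeq on GRCm38.p6. Transcripts were compared with those of all genes by blastn 2.17.0, and 11 subunits have a copy with at least 90% identity over at least 50% of the transcript, so that their reads may be shared with it (Ndufa4, Ndufa7, Ndufa11, Ndufa12, Ndufb2, Ndufb7, Ndufb11, Ndufc1, Ndufs3, Ndufs5 and Ndufs6). The members and lists were chosen with earlier results of these data known. Plots were drawn with matplotlib 3.10.9 in Python 3.11.15.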

Additional observations from a re-analysis of the deposited data

Results flagged for a closer look

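In 54 checks of 1 gene or of the summed members within 1 group of 4 to 7 libraries, 3 values stood further from the rest of their group than Dixon's 95% limit allows, and chance alone flags about 1 in 20 groups. Ndufc1 had 1106 normalized counts in OE control 5, against 782 to 859 in the other controls. Ndufs1 had 2282 in Ftl1 OE library 4, against 1399 to 1721 in the other libraries of that label. Ndufa10 had 35.3 in Ftl1 KD library 5, against 21.1 to 21.9 in the other libraries of that label, and without that library limma still called it higher (log2 fold change 1.17).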

How the results depend on the processing

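Of the summary values recomputed under the alternatives, 211 stayed on their side of the threshold or within the spread between libraries. Another 14 moved, 5 gave more calls and 1 gave fewer. Of the values of single subunits, 640 stayed, 17 were stronger and 24 turned direction. Subunits lower in aging numbered 8, between 5 and 16 with each library left out, and 16 with the replicate block. Core minus accessory in aging was −0.26, and between −0.46 and −0.20 with each library left out. In the overexpression experiment DESeq2 called 7 subunits in place of 0, on the genes tested and on all genes with reads (the latter chosen after seeing the data). On all genes with reads it called Ndufb3 in place of Ndufa4. In the knockdown experiment subunits called numbered 1, 0 with a mean of at least 100, where Ndufa10 was not tested, 2 with median centring and with edgeR, and between 1 and 3 with each library left out (3 without KD control replicate 3). Subunits lower there numbered 2, 7 with no filter and with DESeq2 on all genes with reads, where more subunits are tested, 0 with a mean of at least 100, 1 with median centring, edgeR and DESeq2, and between 2 and 4 with each library left out.

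Directions of single subunits near 0 turned. In aging, leaving out each library gave ranges of −0.41 to 0.065 for Ndufs1, −0.065 to 0.11 for Ndufs3, −0.0043 to 0.40 for Ndufv1 and −0.60 to 0.12 for Ndufv2, and the replicate block gave Ndufs3 −0.065 and Ndufv1 −0.0043. Without OE controls 3 and 5, limma and DESeq2 gave −0.20 and −0.27 for Ndufs1, and 0.014 and 0.029 for Ndufv1. In the knockdown experiment, Ndufs3 was −0.010 with a pseudocount of 5, −0.0080 with TMM scaling and −0.28 with the replicate block. Leaving out each library there gave −0.22 to 0.26 for Ndufs3, −0.21 to 0.34 for Ndufv1 and −0.0038 to 0.65 for Ndufb9. The cause was not tested.

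The labels do not state whether equal replicate numbers mark paired animals, and so few same-numbered libraries cannot decide it. Same-numbered libraries deviated with correlations of −0.05 and 0.02 in aging and −0.03, −0.02 and −0.05 in the knockdown experiment, and the overexpression labels give no numbers. With the replicate block, limma called 80 genes higher and 93 lower in the knockdown experiment in place of 154 and 200, and Ndufa10 was the 1 subunit called. Depth limits the knockdown experiment most, where all 37 subunits together had between 193 and 909 reads per library and 21 of them were not tested.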
